A study of Mus musculus with 3 samples.

Results

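The genes of oxidative phosphorylation were examined in open chromatin maps of the embryonic mouse liver. The members were the protein-coding genes of GENCODE M21 (mm10) whose symbols begin with Nduf, Sdha, Sdhb, Sdhc, Sdhd, Uqcr or Atp5, or with Cox followed by 4 to 8, and they numbered 97 of 21911. By symbol and known role they comprised 75 subunits, 12 assembly factors, 8 isoforms known from particular tissues or states, and 2 others, Cox7a2l and Atp5s. The rule uses the symbol alone and no measured value. DNase-seq maps the sites that the enzyme DNase I cuts, which lie where chromatin is open. The labels describe 1 group, liver of embryos aged 13.5 days of strain C57BL/6N,129, homozygous for a globin mutation named as a deletion of HS2 and HS3, in 3 biological replicates. All replicates carry the deletion and no unaltered liver is analysed here, so the spread between replicates is the only measure of error. The labels do not say how many embryos each replicate holds, and the sex was not collected.

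Oxidative phosphorylation is carried out in the inner mitochondrial membrane. Complexes I (NADH dehydrogenase) and II (succinate dehydrogenase) pass electrons to ubiquinone, complex III (the cytochrome bc1 complex) passes them to cytochrome c and complex IV (cytochrome c oxidase) to oxygen, while complexes I, III and IV pump protons that drive ATP synthesis by complex V. Most subunits are encoded in the nucleus and used in every tissue, and some complex IV subunits have a second gene that is used mainly in heart and skeletal muscle, lung or testis. Erythroid precursors, which fill the embryonic liver at this age, contain mitochondria until late in their maturation, when these are cleared.

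The value given for each promoter is the signal of the strongest peak within 500 bp of any annotated start, in the shorter of the deposited peak lists. This signal is the maximum of the cut density over the peak after scaling to read depth by the authors, and 0 means that the list held no such peak. A promoter is called open where each of the 3 replicates has a peak. A bulk tissue gives 1 signal for all its cells, so fewer cells with an open promoter and less opening in each cell cannot be told apart. That list had 28209, 57314 and 41319 peaks in the replicates numbered 1, 2 and 3. Of 6 erythroid marker genes 6 were open, with summed signals of 44.3, 69.1 and 43.5 in replicates 1, 2 and 3. Of 4 hepatoblast markers 1 was open (Cebpa), and of 4 macrophage, 4 endothelial and 3 neutrophil markers 0 were. Among the endothelial markers Kdr had 0, 0.778 and 0.603, and in the longer list it had a peak in each replicate (0.844, 0.778 and 0.603). Of the other hepatoblast markers Hnf4a had a peak in replicate 2 (0.870), and Afp had peaks in replicates 1 and 2 in the longer list.

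Some promoters carried the letters of a known motif under a footprint, a short stretch inside open chromatin that is protected from DNase I. Of 12 motifs searched, one found at 11 members was that of NRF1, nuclear respiratory factor 1, a transcription factor known to bind promoters of nuclear genes for mitochondrial proteins. Its letters were searched as GCGCATGCG on both strands, and because it is nearly its own reverse complement, the run of 10 capitals holds it on both. The following stretches of GRCm38 are shown because the letters, in capitals, lay inside a footprint in all 3 replicates. Each is read in the direction of its gene.
Atp5k (chr5:108434430-108434459, minus strand): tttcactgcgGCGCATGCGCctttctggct
Atp5g2 (chr15:102671070-102671099, minus strand): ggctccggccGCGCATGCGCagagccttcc
Atp5l (chr9:44920965-44920993, minus strand): aaaccaataaCGCATGCGCatttccccca
Cox6a1 (chr5:115349101-115349130, minus strand): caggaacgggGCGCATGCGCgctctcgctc
Cox6c (chr15:35938170-35938198, minus strand): atcgactcttGCGCATGCGtgctgctgga
Ndufa8 (chr2:36049329-36049357, minus strand): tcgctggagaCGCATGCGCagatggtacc
Ndufa11 (chr17:56717692-56717721, plus strand): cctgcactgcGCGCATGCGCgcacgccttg
Ndufaf4 (chr4:24897960-24897989, plus strand): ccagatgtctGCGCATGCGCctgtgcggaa
Ndufaf5 (chr2:140170652-140170681, plus strand): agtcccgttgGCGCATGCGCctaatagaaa
Uqcr11 (chr10:80406808-80406836, minus strand): atcgccttcaCGCATGCGCtatacgtctg
Uqcrc1 (chr9:108936668-108936697, plus strand): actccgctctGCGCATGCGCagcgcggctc

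These 11 members are 12.2% of the 90 open ones, beside 4.76% (530) of all 11146 open protein-coding genes. They came from every complex but complex II: Atp5k, Atp5g2 and Atp5l from the membrane part of complex V, Cox6a1 and Cox6c from complex IV, Ndufa8 and Ndufa11 from complex I, Uqcr11 and Uqcrc1 from complex III, and the complex I assembly factors Ndufaf4 and Ndufaf5. The middles of the sites lay between 237 bp upstream (Atp5l) and 63 bp downstream (Ndufa8) of the nearest annotated start. The mean signal of these members ran from 4.02 at Atp5l to 13.9 at Cox6a1. Of the 11, 10 lay above 5.59, the median of all open genes, as did 67 of the 90 open members (74.4%). Whether the letters go with signal was not tested. In the 300 bases from 250 before to 50 after the gene start, irrespective of footprints, the same letters occurred in 7 of 97 members (7.22%) and in 2.48% of all protein-coding genes. A match is a description of the sequence and does not show which protein was bound.

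Of 97 members 90 (92.8%) had an open promoter, against 50.9% of all protein-coding genes. In the single replicates the share of all genes with a promoter peak was 51.4%, 57.5% and 55.5% in replicates 1, 2 and 3, and the same 90 members had a peak in each. With the longer peak list 90 members were open, against 55.7% of all genes. All 75 subunits were open, as were 11 of 12 assembly factors and both other members, whereas 2 of 8 tissue isoforms were. The 7 without a promoter peak in any replicate were Cox4i2, Cox6a2, Cox7b2, Cox8b, Cox8c, Ndufa4l2 and Sdhaf1. Other housekeeping families taken by their symbols also had mostly open promoters: 78 of 78 mitochondrial ribosomal protein genes, 38 of 40 proteasome genes and 86 of 98 cytosolic ribosomal protein genes.

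The open members had a median signal of 7.05 (mean over replicates), against 5.59 for all open genes. Their medians were 6.27 in replicate 1, 8.20 in replicate 2 and 6.27 in replicate 3, and those of all open genes 5.08, 6.50 and 5.04. Of the 90 open members 67 lay above the median of all open genes, 31 (34.4%) above their upper quartile of 8.81 and 6 (6.67%) below their lower quartile of 2.95. Open promoters of mitochondrial ribosomal protein genes had a median of 5.95, of proteasome genes 6.34 and of cytosolic ribosomal protein genes 7.76. The members thus lay between other housekeeping families, and no test was made of the difference.

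**Figure D1:**
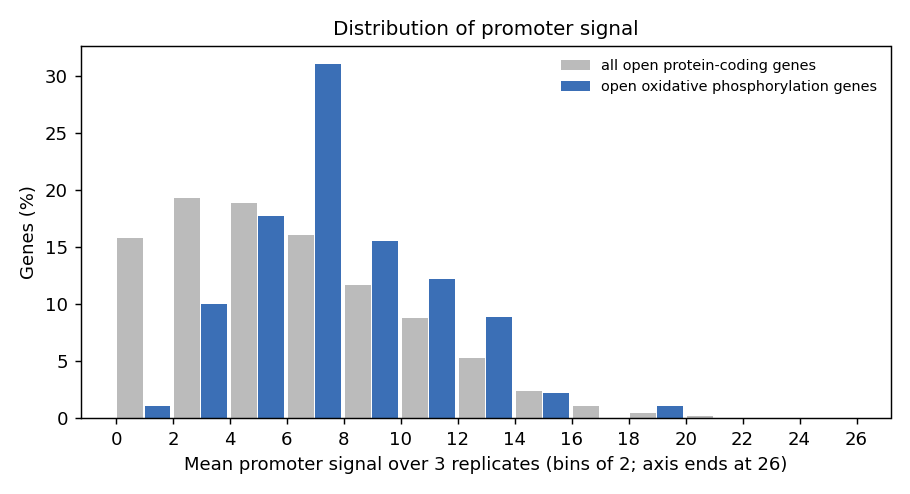
Share of genes (y axis, %) by mean promoter signal over 3 replicates (x axis, bins of 2, axis ends at 26) for the 11146 open protein-coding genes (grey) and the 90 open oxidative phosphorylation genes (blue). The blue bars are lower than the grey ones below a signal of 6, and the medians are 7.05 and 5.59.

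Replicate 2 gave the highest signal at most members. It was highest at 83 of 90 open members (92.2%), and at 75.3% of all open genes. The median ratio of replicate 2 to replicate 1 was 1.32 at members and 1.29 at all open genes, and that of replicate 3 to replicate 1 was 0.999 and 0.992. Over the 90 open members the log2 signals of replicates 1 and 3 had a Pearson r of 0.971, those of replicates 2 and 3 of 0.890 and those of replicates 1 and 2 of 0.873. These correlations are over genes, which share their libraries and are not independent.

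The complexes overlapped widely. Over all members of a complex, the median signal in replicates 1, 2 and 3 was 6.90, 9.03 and 6.55 for complex I (44 genes), 5.78, 7.62 and 5.84 for complex II (8) and 6.64, 8.94 and 6.39 for complex III (8). It was 4.78, 6.38 and 5.04 for complex IV (20) and 6.26, 10.2 and 6.93 for complex V (17). Complex IV was lowest in each replicate, while complex I was highest in replicate 1 and complex V in replicates 2 and 3. The place of complex V rested on genes with several annotated starts: with 1 start per gene its median, as a mean over replicates, was 6.04 in place of 7.80, below complexes I (7.25), II (6.41) and III (7.33). Complex IV holds all 8 tissue isoforms, 6 of them at 0. Among its 11 subunits alone the medians were 6.40, 7.74 and 6.19, close to complex I subunits (36 genes) with 6.81, 8.59 and 6.23 and complex V subunits (16) with 6.18, 9.20 and 6.60. On that base complex V was lowest in replicate 1 and complex IV in replicates 2 and 3. The 4 complex II subunits then had the highest medians in each replicate, 7.23, 10.2 and 6.87, with the narrowest base of any complex.

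**Figure D2:**
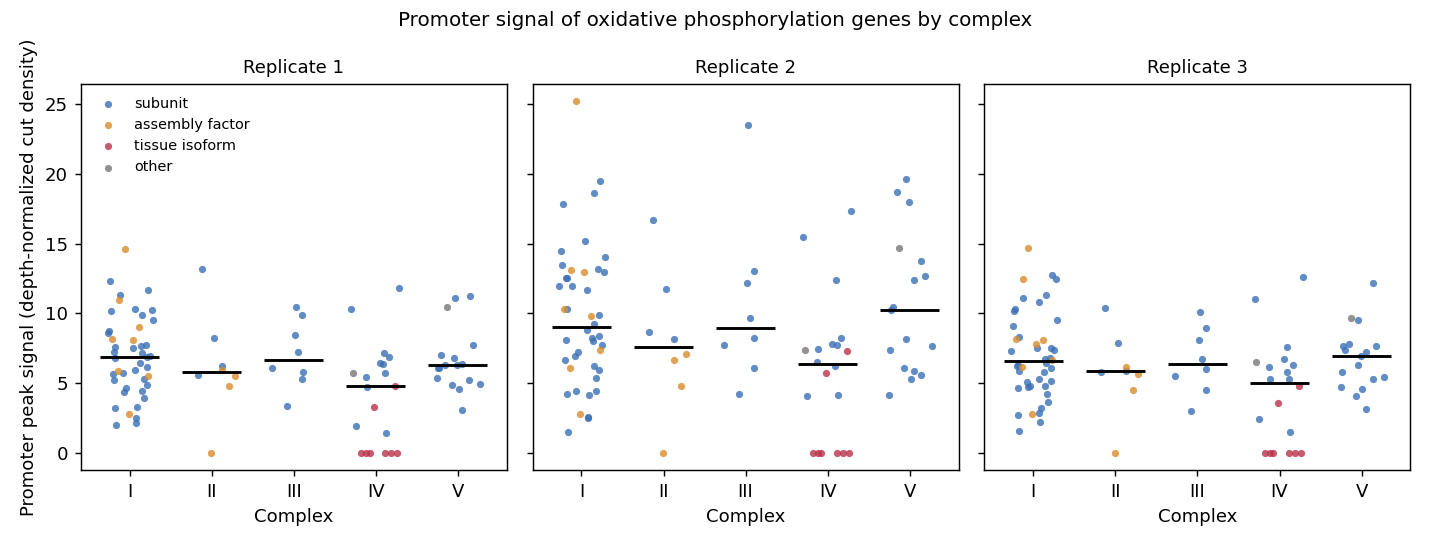
Promoter peak signal (y axis, depth-normalized cut density) of all 97 members by complex (x axis), 1 panel for each replicate. Each point is 1 gene, coloured by class, and the black lines are medians over the complex (6.90, 5.78, 6.64, 4.78 and 6.26 for complexes I to V in replicate 1). The complexes overlap in every panel, and the points at 0 are 6 tissue isoforms and Sdhaf1.

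In complex I the assembly factor gene Ndufaf8 had the strongest promoter of all members. Its signal was 14.6, 25.2 and 14.7 in replicates 1, 2 and 3 (mean 18.2 ± 6.10, SD, n = 3), and its peak also reached, within 500 bp, the start of Tepsin on the other strand. Ndufa7, an accessory subunit gene, had 11.7, 19.5 and 12.8 (14.7 ± 4.22). Ndufa6, another accessory subunit gene, had 9.92, 18.6 and 11.3 (13.3 ± 4.68). In all 3 genes replicate 2 was the highest by far and replicates 1 and 3 lay close together. All 8 complex I assembly factors were open, with a median of 8.92 and a range from 2.78 (Ndufaf1) to 18.2.

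Weak promoters were also found in complex I. Ndufa13, an accessory subunit gene, had 2.02, 1.48 and 1.54 (1.68 ± 0.294), the lowest mean of the open members with this window (11.4 within 1000 bp of the start), and 0 footprints in each replicate, which made it the only open member without one. The X-linked subunit gene Ndufa1 had 2.13, 2.59 and 2.18 (2.30 ± 0.255), and Ndufc2 had 2.46, 2.46 and 2.85 (2.59 ± 0.225). All 3 X-linked members were low, with 3.24, 4.21 and 2.70 (3.38 ± 0.766) at Ndufb11 and 1.39, 4.13 and 1.49 (2.34 ± 1.56) at the complex IV gene Cox7b. The median of the 324 open genes on chromosome X was 2.82, against 5.71 for the 10819 on autosomes, and the part of the number of X chromosomes in this was not tested.

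In complex II, Sdha, the flavoprotein that oxidizes succinate, had signals of 13.2, 16.7 and 10.4 in replicates 1, 2 and 3 (13.4 ± 3.16, SD, n = 3). Sdhb, the iron-sulfur subunit, had 5.61, 8.65 and 5.82 (6.69 ± 1.70). The membrane anchor gene Sdhc had 8.25, 11.7 and 7.89 (9.30 ± 2.13) and the other anchor gene, Sdhd, 6.20, 8.17 and 5.85 (6.74 ± 1.25). In each replicate Sdha was the highest of the 4 and Sdhc the next. Sdhb and Sdhd, the lower pair, differed by less than their spread. Of the assembly factors Sdhaf2, Sdhaf3 and Sdhaf4 were open, with means of 4.70, 6.07 and 6.27. Sdhaf2 had the most footprints of any member, 16, 13 and 12, over 9 annotated starts, and its strongest peak in replicate 2 did not overlap that of replicates 1 and 3.

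In complex III, Uqcrq, a small subunit gene, had 10.5 in replicate 1, 23.5 in replicate 2 and 10.1 in replicate 3 (14.7 ± 7.64, SD, n = 3). Its peak also reached the start of Gdf9, an oocyte growth factor gene 192 bp away on the other strand, so the signal cannot be assigned to 1 of the genes. Uqcrfs1, the Rieske iron-sulfur subunit, had 9.90, 13.1 and 8.95 (10.6 ± 2.16). The hinge protein gene Uqcrh had 8.48, 12.2 and 8.11 (9.59 ± 2.24). Replicate 2 was highest at all 8 genes of the complex. Cyc1, the cytochrome c1 subunit, whose symbol falls outside the rule, had 3.18, 3.19 and 2.74 (3.04 ± 0.254), below the lowest Uqcr gene, Uqcrb, with a mean of 3.51.

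In complex V, Atp5f1, the b subunit of the stalk that holds the catalytic head, had 11.1, 19.6 and 9.53 (13.4 ± 5.43, SD, n = 3). It has 6 annotated starts, and with 1 start per gene its mean was 0.198. Atp5mpl, a small membrane subunit gene, had 11.3, 13.8 and 12.2 (12.4 ± 1.29) and Atp5s, known as coupling factor B, 10.5, 14.7 and 9.70 (11.6 ± 2.67). Genes for the catalytic F1 head (Atp5a1, Atp5b, Atp5c1, Atp5d and Atp5e, 5 genes) had medians of 6.26, 12.4 and 7.23 in replicates 1, 2 and 3, and the other 11 subunits 6.10, 8.19 and 6.27. The gap was widest in replicate 2 and small in replicate 1. The F1 genes ranged from 4.71 at Atp5a1, the only one of them where replicate 2 was not the highest, to 10.9 at Atp5b. Atp5b, the catalytic beta subunit, had 6.26, 18.8 and 7.83 (10.9 ± 6.80), and Atp5g1, a gene of the c ring that turns as protons pass, 6.29, 18.0 and 6.93 (10.4 ± 6.58). With Cox7b these had the widest relative spread, with coefficients of variation of 62.2% at Atp5b, 63.2% at Atp5g1 and 66.6% at Cox7b. The narrowest were 1.25% at Ndufaf1, 2.42% at Ndufaf6 and 3.45% at Atp5g3, another c ring gene, which had 5.23, 5.58 and 5.30.

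Complex IV holds the genes whose products differ between tissues. At the general isoforms Cox4i1 had 6.40, 6.26 and 5.76 in replicates 1, 2 and 3 (6.14 ± 0.334, SD, n = 3), Cox6a1 11.9, 17.4 and 12.6 (13.9 ± 2.98) and Cox8a 7.14, 12.4 and 7.56 (9.03 ± 2.92). No replicate had a promoter peak at Cox4i2, the lung isoform of Cox4i1, at Cox6a2, the heart and muscle isoform of Cox6a1, at Cox8b and Cox8c, the muscle and testis isoforms of Cox8a, or at Cox7b2, the testis isoform of Cox7b. Ndufa4, a complex IV subunit despite its symbol, had 5.70, 7.74 and 5.30 (6.25 ± 1.31), while its hypoxia-induced paralogue Ndufa4l2 had 0 in each. None of the 6 closed isoforms had a base past the FDR limit of 0.05 in its promoter window, except Ndufa4l2 with 55 bases in replicate 2. That replicate also had a weak peak of 0.427 at Ndufa4l2 in the longer list. Of the 32-base words in the promoters of the closed members 97.1% to 100% occurred once in the genome, so the sequence there could be mapped. Cox5b, a complex IV subunit with no second isoform, had 10.3, 15.5 and 11.1 (12.3 ± 2.80).

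The muscle isoform Cox7a1 and the testis isoform Cox6b2 were open in all 3 replicates. Cox7a1 had 3.26, 5.74 and 3.54 (4.18 ± 1.36, SD, n = 3), against 6.88, 8.20 and 6.32 (7.13 ± 0.965) at its general counterpart Cox7a2. Cox7a2 was higher in 3 of 3 replicates, by a mean of 2.95 ± 0.597. Cox6b2 had 4.81, 7.30 and 4.80 (5.64 ± 1.44), against 4.74, 7.41 and 5.27 (5.81 ± 1.42) at Cox6b1. Cox6b1 was higher in 2 of 3 replicates, by a mean of 0.169 ± 0.280, a difference smaller than its spread (p = 0.5, exact sign-flip test over the replicates, two-sided). The other 7 pairs had the general isoform higher in 3 of 3 replicates with p = 0.25 by the same exact test. That is the smallest p that 3 replicates allow, so no pair could pass 0.05. In all of these pairs but that of Cox7a1 the tissue isoform had no peak in any replicate. There the outcome of the test was fixed by the closed call and adds nothing to it. Cox8a also served in 2 of the pairs.

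**Figure D3:**
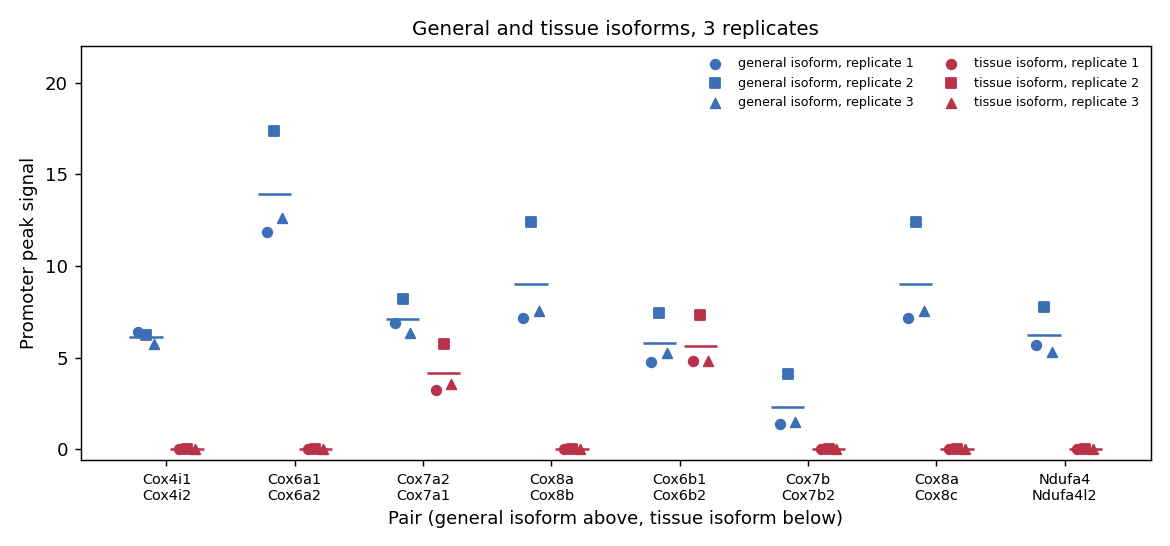
Promoter peak signal (y axis) of 8 pairs of a general (blue) and a tissue (red) isoform (x axis; Cox8a appears in 2 pairs). Symbols are the 3 replicates and short lines their means. The tissue isoforms sit at 0 except Cox7a1, below Cox7a2 in each replicate, and Cox6b2, which overlaps Cox6b1.

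Footprints were present at both open tissue isoforms. Cox6b2 had 13, 13 and 13 in replicates 1, 2 and 3, among the most of any member, and Cox7a1 had 5, 7 and 3. Neither had a protein-coding start on the opposite strand within 1000 bp, and neither peak reached the start of another protein-coding gene. Noncoding genes were not searched. Of 6 muscle markers 1 was open, Mylpf, with 3 at 0 in all replicates, and the summed signals were 6.89, 10.2 and 5.19. Most of these sums came from the peak at Mylpf (4.80, 7.08 and 4.09), which also reached Tbc1d10b. The peak at Ckm also reached Klc3, so the signals at Mylpf and Ckm cannot be assigned to these genes alone. The muscle marker Tnni3 had 0, 1.15 and 1.1 in replicates 1, 2 and 3, and its peaks reached no start of another protein-coding gene. Of 5 germ cell and testis markers 1 was open, Dazl, and 4 were at 0 in all replicates, with sums of 3.87, 5.18 and 4.14. The part of such cells in the signal at Cox7a1 and Cox6b2 was not tested.

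The closed isoforms had few CG dinucleotides around their starts. The CpG ratio is observed over expected CG dinucleotides in 1001 bases around the start. It lay between 0.186 and 0.468 at the closed isoforms, and was 0.0858 at the GENCODE start of Sdhaf1, the other closed member. It had a median of 0.729 over the open members, 0.740 over all open genes and 0.552 over all genes. The open isoforms were also low, with 0.277 at Cox7a1 and 0.432 at Cox6b2, and 14 of the 90 open members (15.6%) were below 0.6, against 24.6% of all open genes. A low ratio did not by itself separate closed from open members. The following stretches, from 100 bases before to 50 after the start in GRCm38, show the general isoform Cox6a1 with 18 CG dinucleotides (in capitals), its closed muscle isoform Cox6a2 with 2 and the open muscle isoform Cox7a1 with 6.
Cox6a1 (chr5:115348932-115349081, minus strand): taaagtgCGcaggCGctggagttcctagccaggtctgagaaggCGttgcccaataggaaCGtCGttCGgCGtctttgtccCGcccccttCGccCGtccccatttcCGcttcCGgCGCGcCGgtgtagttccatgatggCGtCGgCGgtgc
Cox6a2 (chr7:128206338-128206487, minus strand): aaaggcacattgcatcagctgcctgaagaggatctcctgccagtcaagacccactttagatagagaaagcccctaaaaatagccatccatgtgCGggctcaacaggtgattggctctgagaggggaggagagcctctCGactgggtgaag
Cox7a1 (chr7:30184044-30184193, plus strand): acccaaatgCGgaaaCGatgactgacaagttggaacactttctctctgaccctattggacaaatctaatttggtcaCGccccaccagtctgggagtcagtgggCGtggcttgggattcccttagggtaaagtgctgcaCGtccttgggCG

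Sdhaf1, an assembly factor of complex II that helps to insert the iron-sulfur clusters of Sdhb, was the only closed member outside the tissue isoforms, and this rested on the annotated start. GENCODE places the start at position 30323895 of chromosome 7 (minus strand, mm10), where no replicate had a base past the FDR limit. RefSeq places it 1520 bp downstream, at 30322375. A peak lay at that start in replicates 2 and 3 and 6 bp from it in replicate 1, with signals of 6.35, 12.8 and 7.14 in replicates 1, 2 and 3 (8.77 ± 3.53, SD, n = 3) and 6, 7 and 9 footprints. With RefSeq starts added, 91 members were open, against 51% of all genes. Both starts are shown, from 100 bases before to 50 after, with CG dinucleotides in capitals: there is 1 at the GENCODE start and there are 14 at the RefSeq start.
Sdhaf1, GENCODE start (chr7:30323846-30323995, minus strand): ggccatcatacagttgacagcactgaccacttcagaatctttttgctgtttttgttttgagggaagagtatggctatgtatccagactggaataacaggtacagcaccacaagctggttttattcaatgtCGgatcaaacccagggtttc
Sdhaf1, RefSeq start (chr7:30322326-30322475, minus strand): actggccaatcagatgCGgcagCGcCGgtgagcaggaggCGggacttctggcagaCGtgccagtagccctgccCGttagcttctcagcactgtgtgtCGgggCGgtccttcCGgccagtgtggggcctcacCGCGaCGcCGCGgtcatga

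The value of Ndufa13 also depended on the annotated start. Its GENCODE start at position 69902558 of chromosome 8 (minus strand) lay in or beside the weak peak given above. The RefSeq start lies 538 bp downstream, at 69902020, and brings into reach a peak 220 bp from it, at 69901581 to 69901800, with signals of 9.61, 14.4 and 9.27 (11.1 ± 2.84, SD, n = 3) and 7, 10 and 7 footprints in the window. A further peak upstream of the GENCODE start had 9.49, 14.6 and 9.86. The stronger peaks thus flank the annotated start at both sides. RefSeq starts were matched for 78 of the 97 members.

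**Figure D4:**
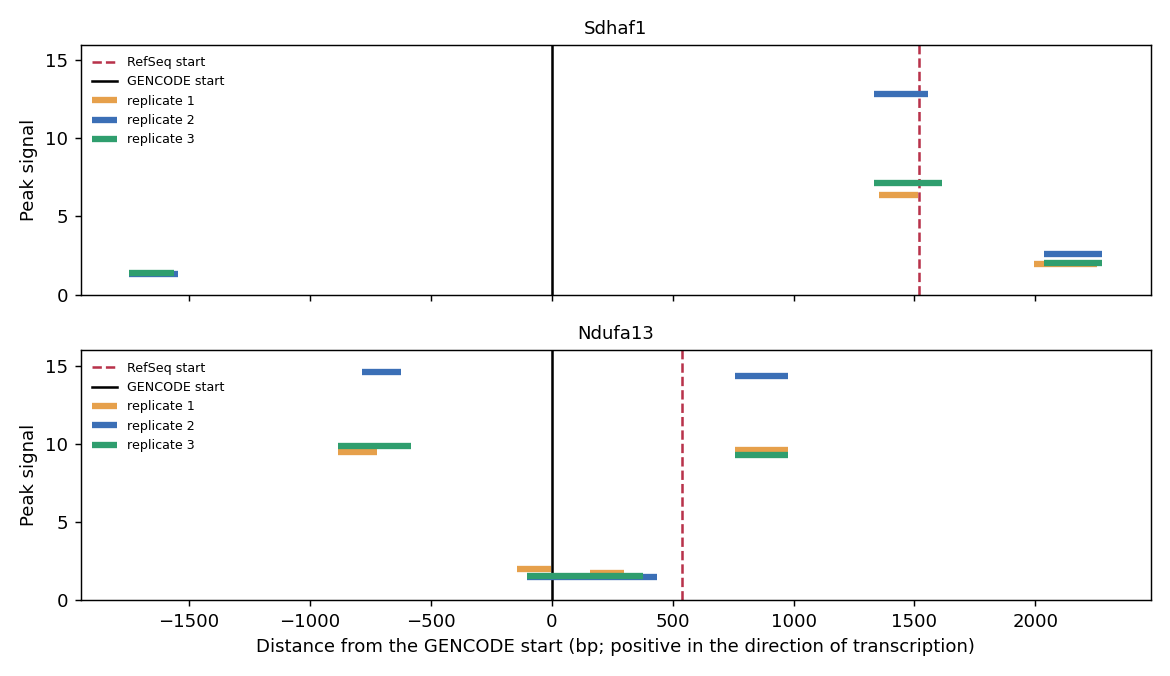
Peaks around the GENCODE starts of Sdhaf1 (top) and Ndufa13 (bottom). Each bar spans a peak along the distance from the GENCODE start (x axis, bp, positive in the direction of transcription) at the height of its signal (y axis), coloured by replicate, and the vertical lines mark both annotated starts. At Sdhaf1 the strong peaks lie at the RefSeq start, 1520 bp from the GENCODE start, and at Ndufa13 the strong peaks lie at both sides of the GENCODE start, where the signal is 1.48 to 2.02.

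The strongest peaks of most open members had their middle near an annotated start. The distance from the nearest start to the middle of the strongest peak had a median of 33.5 bp at members and 52.5 bp at all open genes. At 69 of 90 open members (76.7%) it was within 100 bp in every replicate, against 62.9% of all open genes. A short distance is partly built in, because the peak had to overlap the window of 500 bp either side of a start. Genes with more annotated starts can also give shorter distances, and the number of starts was not compared with all open genes. Many members share their promoter region with a neighbour: 37 of 90 (41.1%) had a protein-coding start on the opposite strand within 1000 bp, against 21.4% of all open genes. The share was 42.3% for the mitochondrial ribosomal protein genes, 28.9% for the proteasome genes and 22.1% for the cytosolic ribosomal protein genes. At 36 open members (40%) the strongest peak also lay within 500 bp of the start of another protein-coding gene, against 21.6% of all open genes. Its signal there cannot be assigned to 1 of them.

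Several of these neighbours also serve the mitochondrion or translation. Atp5j, a stalk subunit of complex V, starts 31 bp from Gabpa, which encodes the DNA-binding subunit of nuclear respiratory factor 2, and their shared peak had 4.86, 6.05 and 4.10 in replicates 1, 2 and 3. Ndufb5 starts 20 bp from Mrpl47 and Ndufs6 29 bp from Mrpl36, both genes of the mitochondrial ribosome. Sdhd starts 98 bp from Timm8b, of the mitochondrial protein import machinery. Ndufa7 starts 10 bp from Rps28, a gene of the cytosolic ribosome, and Ndufs1 3 bp from Eef1b2, a translation elongation factor gene. In complex IV 2 of 14 open members had such a neighbour, and in complex I 20 of 44.

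Of the 90 open members 89 had a footprint in their promoter window in every replicate, against 99.1% of all open genes. The median number, as a mean over replicates, was 7 at members and 7.67 at all open genes. Besides Sdhaf2 and Cox6b2 the highest were Ndufs1 with 9, 16 and 14, Atp5j with 10, 12 and 16, and Ndufa4 with 10, 17 and 10, which Ndufaf8 with 14, 14 and 9 and Ndufaf3 with 12, 12 and 13 equalled in the mean. The replicates did not rank the same way at these genes, and genes with more annotated starts have a wider window. Signal and footprint number had a Pearson r of 0.275 over the 90 open members and of 0.445 over the 11146 open genes.

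The GC-rich motif of SP and KLF factors was searched as GGGCGGG on both strands. It was under a footprint in all 3 replicates at 17 members (18.9%), below the 28.8% of all open genes. In the 300 bases around the gene start, irrespective of footprints, its letters occurred in 28.9% of members and 31.6% of all protein-coding genes. The following members are shown as examples with strong signals and different motifs, with the motif letters under footprints in capitals. Cox6a1 has the NRF1 letters and an SP/KLF motif, Ndufv3, an accessory complex I subunit gene, an SP/KLF motif and CCCAGAATG of ZNF143, a factor of many housekeeping promoters, Uqcrq 3 SP/KLF motifs and Atp5f1 1.
Cox6a1 (chr5:115348982-115349135, minus strand): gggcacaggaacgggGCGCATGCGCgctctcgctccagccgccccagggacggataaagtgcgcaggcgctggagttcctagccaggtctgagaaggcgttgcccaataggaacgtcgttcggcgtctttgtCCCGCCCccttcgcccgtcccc
Ndufv3 (chr17:31519961-31520098, plus strand): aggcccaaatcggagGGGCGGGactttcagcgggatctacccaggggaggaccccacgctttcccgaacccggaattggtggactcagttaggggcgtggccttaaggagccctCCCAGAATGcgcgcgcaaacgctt
Uqcrq (chr11:53431077-53431238, minus strand): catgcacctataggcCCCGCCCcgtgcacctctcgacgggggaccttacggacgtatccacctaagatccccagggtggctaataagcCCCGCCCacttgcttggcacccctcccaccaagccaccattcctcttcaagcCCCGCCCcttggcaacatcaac
Atp5f1 (chr3:105959272-105959391, minus strand): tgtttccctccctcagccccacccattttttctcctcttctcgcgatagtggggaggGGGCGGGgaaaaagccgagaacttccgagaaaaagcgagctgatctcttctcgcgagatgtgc

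In Uqcrq the 3 SP/KLF sites were 264 to 389 bp upstream of the nearest annotated start, inside the peak that also reached Gdf9. In Ndufv3 the ZNF143 letters were 36 bp upstream of the start and the SP/KLF letters 136 bp upstream. Ndufv3 had signals of 10.2, 17.8 and 10.3 (12.8 ± 4.40, SD, n = 3).

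The other motifs were rare under footprints. CREB/ATF letters (TGACGTCA) were found at 4 members, Atp5d, Ndufa10, Ndufb2 and Uqcrfs1, against 2.37% of all open genes. The ETS letters CCGGAAGT, bound by nuclear respiratory factor 2 among others, were found at 1 member, Uqcrh, against 1.04%. NF-Y letters (AGCCAAT) were found at 1, Ndufaf8, against 0.745%, those of ZNF143 (CCCAGNATG) at 1, Ndufv3, against 0.224%, and those of the TATA box (TATAAA) at 1, Ndufa7, against 0.511%. There were 0 members with letters of YY1 (AAGATGGCG, 0.377% of all open genes), the USF E-box (CACGTGAC, 0.709%), the estrogen-related receptors (TCAAGGTCA, 0%), GATA factors (AGATAAG, 0.0449%) and MEF2 factors (CTATTTATA, 0.0359%). Most of these counts are near the background of open genes.

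Where the letters only had to touch a footprint, YY1 counted 7 members (Atp5g2, Atp5h, Atp5j, Ndufaf8, Ndufc1, Ndufs7 and Uqcrh), or 7.78%, against 2.28% of all open genes. YY1 is a zinc finger factor known to bind around starts. The NRF1 members stayed at 11 by this rule. ETS then counted 3 members (4.27% of open genes), NF-Y 3 (3.32%), ZNF143 2 (0.915%) and the TATA box 2 (1.17%).

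**Figure D5:**
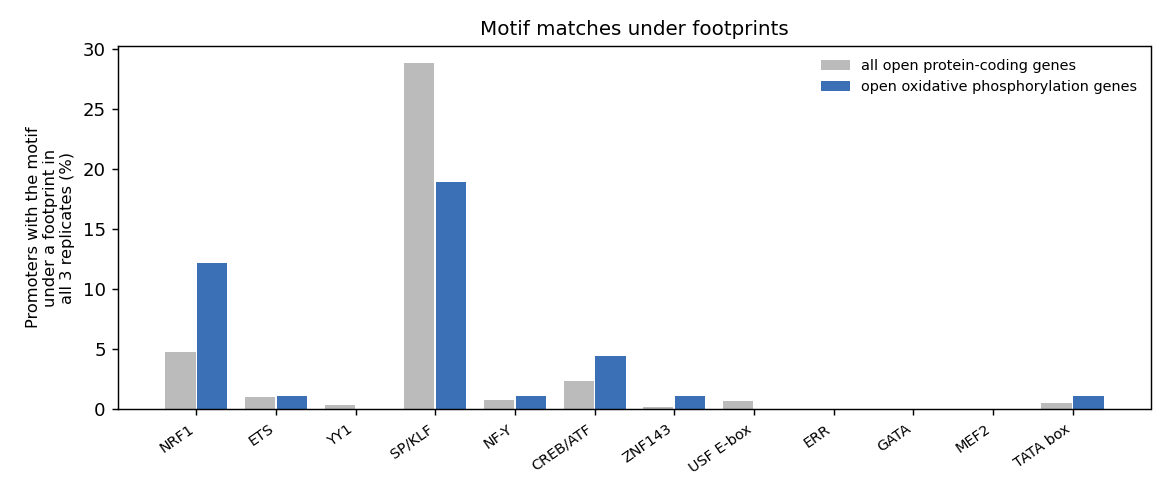
Share of promoters (y axis, %) with the letters of each motif (x axis) inside a footprint in all 3 replicates, for all 11146 open protein-coding genes (grey) and the 90 open oxidative phosphorylation genes (blue). NRF1 is at 12.2% against 4.76% and SP/KLF at 18.9% against 28.8%.

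Of 45 other genes of the pathway, chosen by known role, 43 were open in all 3 replicates, against 50.9% of all protein-coding genes. Housekeeping families also had mostly open promoters, as given above, so such counts are not particular to the pathway. All 30 assembly genes of complexes I, III, IV and V outside the rule were open. Cycs, the general cytochrome c gene, had 14.2, 19.4 and 12.9 in replicates 1, 2 and 3 (15.5 ± 3.43, SD, n = 3), whereas Cyct, its testis form, had 0 in each. Among 12 regulators 11 were open. Esrra, the estrogen-related receptor alpha gene, had the highest signal, 15.7, 28.9 and 15.3 (19.97 ± 7.77). Tfam, which packages mitochondrial DNA and acts in its transcription, had 8.20, 9.71 and 7.60 (8.51 ± 1.09). Nrf1 itself had 5.52, 5.07 and 5.68 (5.42 ± 0.316). The exception was Ppargc1a, the coactivator PGC-1alpha, with 0 in replicates 1 and 3 and 0.284 in replicate 2. In the longer list it had a weak peak in each replicate (0.365, 0.284 and 0.286), which would make it open there. Its relative Ppargc1b had 2.08, 2.23 and 2.50 (2.27 ± 0.214). The remaining regulators, Gabpb1, Pprc1, Tfb1m, Tfb2m, Polrmt and Yy1, had means between 4.98 and 13.5.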

How the data were processed

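DNase-seq of embryonic mouse liver (1 group, 3 biological replicates) was analysed from files made per sample on mm10, per the deposited notes. For the alignment, the peaks and the footprints, the programs used were not given in the sources used here. Each deposited peak signal is its maximum cut density, which the authors scaled to read depth; the depth itself is not stated. The FDR values the authors deposited are p-value type measures, listed below 0.05 only, and the deposited footprints all carry 0.01. Starts came from GENCODE M21 and sequences from GRCm38 (RefSeq); RefSeq starts were an added alternative. Gene records of 1 symbol were joined. A peak or footprint counted where it shared 1 bp with the window of 500 bp either side of any start. A motif counted where all its letters lay inside footprints in all 3 replicates; 12 motifs were searched. There is 1 group, so no contrast between conditions was tested. Pairs of isoforms were compared by an exact sign-flip test.

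The members and lists were chosen with earlier results of these data known. Genes given in full were the 3 with the highest mean signal in complexes I, III, IV and V, the complex II subunits, members without a peak, the isoform pairs, the 5 with the most footprints, those open without a footprint, and the 3 with the highest and the lowest coefficient of variation; others named for role, chromosome, neighbours or low signal were chosen after their values were seen. Alternatives were the longer list, windows of 200 and 1000 bp, 1 start per gene, the upper 50% of peaks, regions joined over replicates, and each replicate left out. Promoter assignment was tested on simulated peaks. Python 3.11.15, numpy 2.4.6, scipy 1.17.1 and matplotlib 3.10.9 were used. The values of 1 member are not reported here singly, and it remains in the counts.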

Additional observations from a re-analysis of the deposited data

How the results depend on the processing

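The count of 90 open members was the same with the longer list, windows of 200 and 1000 bp, joined regions and each replicate left out. It was 86 with 1 start per gene, 87 with the upper 50% of peaks (without Ndufa13, Cox7c and Cox7b) and 91 with RefSeq starts, an alternative chosen after seeing the data. As a mean over replicates, the median of complex IV was 5.40 over all members, 6.36 over members with a peak in every replicate and 6.78 over subunits, and that of complex II was 6.41 over all members and 8.10 over subunits; the subunit split was chosen after seeing the data. Where motif letters had to touch a footprint in place of lying inside it, ETS counted 3 members in place of 1, YY1 7 in place of 0, NF-Y 3 in place of 1, ZNF143 2 in place of 1 and the TATA box 2 in place of 1; the cause was not tested. Leaving out 1 replicate at a time gave ETS counts of 1 to 2 (2 without replicate 3), YY1 0 to 1, NF-Y 1 to 4 and ZNF143 1 to 2 (the higher values without replicate 1). The order of the complexes changed with the setting: complex V (7.80, above complex I with 7.49) was 6.04 with 1 start per gene, below complex I with 7.25, and 6.60 without replicate 2, below complex I with 6.73. Complex II rose from below complexes I, III and V to above all others when only subunits counted. Of single genes, the mean signal of Ndufa13 was 1.68 as reported and 11.4 with a window of 1000 bp, and that of Atp5f1 0.198 with 1 start per gene. The mean signal of Sdhaf2 was 4.42 with a window of 200 bp, that of Uqcrh 6.40, and that of Atp5j 3.97 with 1 start per gene. No paired analysis was possible because there is 1 group, so replicate numbers pair no samples across groups. The read depth is unknown, so a promoter without a listed peak was not shown to be without cuts, and small differences between genes are limited by 3 replicates.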
